A study of Caenorhabditis elegans with 6 samples.

Results

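This is a comparison of the RNAs crosslinked to MEG-3::GFP with those crosslinked to PGL-1::GFP in early *C. elegans* embryos, by iCLIP, in which UV light links proteins to the RNA they touch and the immunoprecipitated RNA is sequenced. The libraries are called MEG-3 and PGL-1 libraries below. It used 4 of the 6 libraries of the series, 2 for each protein, chosen by their labels. The other 2 libraries, from embryos with GFP alone, served as background. The question was whether reads fall on different gene families for these P granule proteins once library totals are allowed for. All 6 libraries came from mixed early embryos of young adults fed NA22 bacteria at 20 °C. The embryos received 3 UV doses of 400 mJ per cm2, and GFP was immunoprecipitated from their lysates. The tag sat at the endogenous locus of each gene, in the listed strains *meg-3(ax3054[meg-3::meGFP]) X* and *pgl-1(ax3122[pgl-1::GFP]) IV*, so each protein was expressed where its own gene is. The control embryos expressed GFP fused to neither protein, and their libraries carry names of another library series, so control and library series cannot be told apart.

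P granules are RNA and protein condensates that pass to the germ cells of the embryo. PGL-1 is a protein with RGG repeats that forms the liquid core of these granules with its paralog PGL-3. MEG-3 is an intrinsically disordered protein that binds RNA and assembles a more solid phase with its paralog MEG-4. Many maternal mRNAs of the early embryo are kept untranslated by RNA-binding proteins such as the PUF, CCCH zinc finger and KH domain proteins, and several of these mRNAs concentrate in the germ lineage.

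The MEG-3 libraries held 225609 and 280007 reads on genes, the PGL-1 libraries 21180 and 92593, and the GFP libraries 26531 and 14040. MEG-3 iCLIP thus had 4.44 times the summed reads of PGL-1 iCLIP. Every level below is therefore a share of a library's reads on genes or CPM (counts scaled to a library total of 1000000), and compares 1 gene or family between libraries, since reads were not corrected for gene length. A count of 0 in the first PGL-1 library allows up to 142 CPM (3 reads), against 13.3 and 10.7 in the MEG-3 libraries. Of 9 maternal marker mRNAs, all 9 were read in both MEG-3 libraries and the second PGL-1 library, and 7 in the first PGL-1 library. They took 2.70% and 2.83% of MEG-3 reads, 1.32% and 0.888% of PGL-1 reads, and 2.08% and 0.285% of GFP reads. Of the 6089 and 7932 marker reads in the MEG-3 libraries, *puf-5* held 2865 and 2123 and *cbd-1* 1255 and 2041. Of the 279 and 822 in the PGL-1 libraries, they held 35 and 174 and 2 and 195. Both genes are also members of families compared below, so the order of these sums rests largely on them. Yolk protein genes had no read in 3 of the 4 libraries and 0.00108% of reads in the second PGL-1 library.

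The PGL-1 libraries were less alike than the MEG-3 libraries, and this bears on every result. The first PGL-1 library had reads on 1025 genes and the second on 7961, against 3130 and 6461 for MEG-3 iCLIP. At a common depth of 14040 reads the expected numbers were 896 and 4509 genes for PGL-1 iCLIP, and 2175 and 3472 for MEG-3 iCLIP. The 100 most read genes took 55.1% and 16.2% of PGL-1 reads, and 24.8% and 21.3% of MEG-3 reads. Spearman's rank correlation of read counts, over the genes read in both libraries of a pair, was 0.43 for the MEG-3 libraries (2907 genes) and 0.078 for the PGL-1 libraries (980 genes). The second PGL-1 library correlated with the second MEG-3 library at 0.50 (5571 genes), but over the 2033 genes tested below that pair correlated at 0.31, the MEG-3 libraries at 0.43 and the PGL-1 libraries at 0.076. The first GFP library correlated with the second MEG-3 library at 0.47 (3791 genes) and with the second PGL-1 library at 0.41 (3850 genes). Over the tested genes these GFP pairs correlated at 0.33 and 0.18. The second GFP library correlated with the same libraries at -0.033 (1579 genes) and 0.12 (1770 genes). These correlations are across genes, which are not independent replicates, and describe these libraries.

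**Figure D1:**
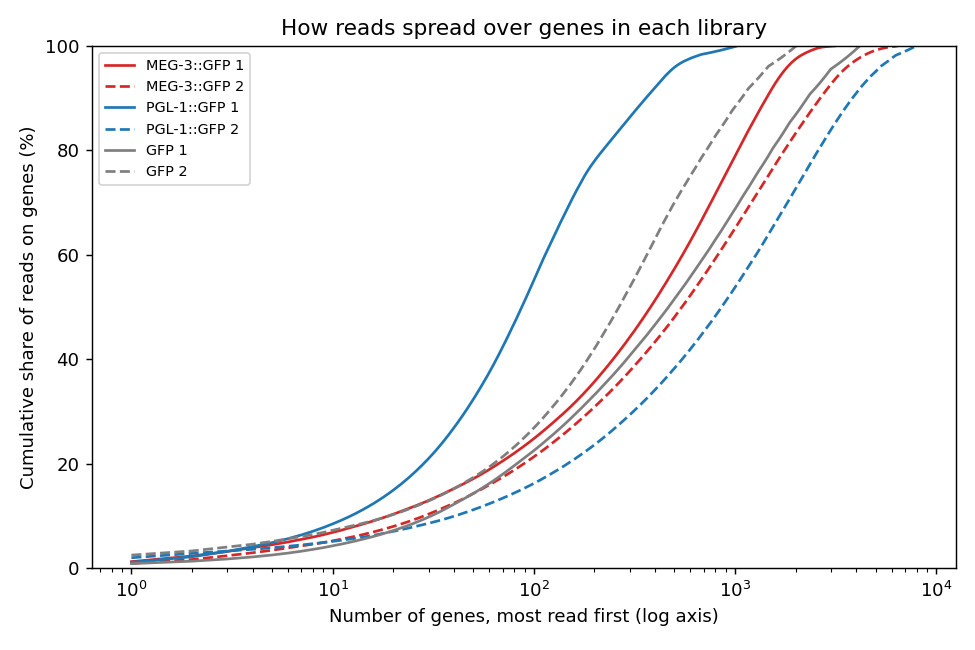
Cumulative share of reads on genes (%, y axis) against the number of genes, most read first (log x axis), for each of the 6 libraries, with solid lines for the first and dashed lines for the second library of a group. The first PGL-1 library reached 55.1% of its reads in 100 genes, while the other 3 MEG-3 and PGL-1 libraries were between 16.2% and 24.8% there.

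No gene passed edgeR's quasi-likelihood test of MEG-3 iCLIP against PGL-1 iCLIP. Among 2033 genes with enough reads to test, 0 (0%) passed a Benjamini-Hochberg adjusted p of 0.05, the lowest adjusted p was 1, and DESeq2 also called 0. At an unadjusted p under 0.05, edgeR counted 0 genes higher and 26 (1.28%) lower in MEG-3 iCLIP. The coefficient of variation between libraries of a group was 1.39 in this fit. The median log2 fold change of all tested genes was 0.88 toward MEG-3 iCLIP with TMM scaling, 0.46 with library totals and 0.25 with DESeq2's size factors. It was -0.38 with no filter on low counts and -1.325 in DESeq2, and without MEG-3 replicate 1, MEG-3 replicate 2, PGL-1 replicate 1 or PGL-1 replicate 2 it was 0.0052, -0.02, -0.02 and 4.885. A gene's log2 value is therefore to be read against the 0.88 of the same fit, and the direction of this median rests on the setting and the libraries used. Of the tested genes, 1260 (62.0%) had no read in the first PGL-1 library. With 2 libraries against 2, an exact two-sided permutation test of a single value cannot give a p below 0.333, so what follows describes which families and genes were separated, meaning that both libraries of one protein lay above both of the other. Nothing in the labels says that the libraries of a protein came from separate cultures, so the spread between them may be technical.

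By this rule, with counts under 3 raised to 3, 537 of 2033 genes (26.4%) were higher in both MEG-3 libraries and 321 (15.8%) in both PGL-1 libraries. The second number depends on the floor, since a gene with no read in the first PGL-1 library was set to 142 CPM there. When at least 3 reads were also asked of both libraries of the higher group, a rule chosen after the values were seen, 537 (26.4%) and 103 (5.07%) remained, and this rule is used below for genes. Without MEG-3 replicate 1, MEG-3 replicate 2, PGL-1 replicate 1 or PGL-1 replicate 2, the first rule gave 874, 851, 732 and 765 genes higher in MEG-3 iCLIP and 595, 799, 608 and 558 higher in PGL-1 iCLIP, as fewer libraries had to lie apart. Of the 537 genes, 298 (55.5%) also had both MEG-3 libraries above both GFP libraries, against 20.0% of all tested genes. The 537 were chosen by the same MEG-3 values, so part of this excess follows from the choice. Of the 103 genes 27 (26.2%) had both PGL-1 libraries above both GFP libraries, against 3.34% of all tested genes. The 103 were chosen to have reads in the first PGL-1 library, where 62.0% of all tested genes had none. Such genes, set to 142 CPM, could not lie above the second GFP library, whose floor was 214 CPM. The rule thus sets much of this contrast.

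Of 39 gene families drawn up by gene name, 37 had enough reads to compare. In 10 families both MEG-3 libraries had the larger share, namely the PUF proteins, Nanos, the eggshell and oocyte surface, chaperones, P body and mRNA decay factors, the proteasome, membrane trafficking, meiosis, ubiquitin ligases, and actomyosin and cytokinesis. All but actomyosin and cytokinesis also lay above both GFP libraries. For meiosis the lower MEG-3 library, at 0.712% (95% interval 0.678 to 0.747), was about equal to the first GFP library, at 0.709% (95% interval 0.615 to 0.817). In 5 families both PGL-1 libraries were higher, namely translation factors, centrosome and spindle, the mitochondrial ribosome, and the muscle and intestine markers. Only 2 of these 5, centrosome and spindle and the intestine markers, also lay above both GFP libraries. The remaining 22 families overlapped. Counted by replicate number, 13 families had a larger share in MEG-3 iCLIP in both replicates, 6 in PGL-1 iCLIP in both, and 18 went in opposite directions. These counts include 3 families with no read in the first PGL-1 library, taken as higher in MEG-3 iCLIP in replicate 1. Between the libraries of a protein, the median fold over families was 1.29 for MEG-3 iCLIP and 2.20 for PGL-1 iCLIP, and 3 against 21 families differed more than 2-fold. The 95% Wilson interval of a family share was at most 0.160 percentage points wide in the MEG-3 libraries and 0.451 in the PGL-1 libraries. These intervals cover counting error only.

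**Figure D2:**
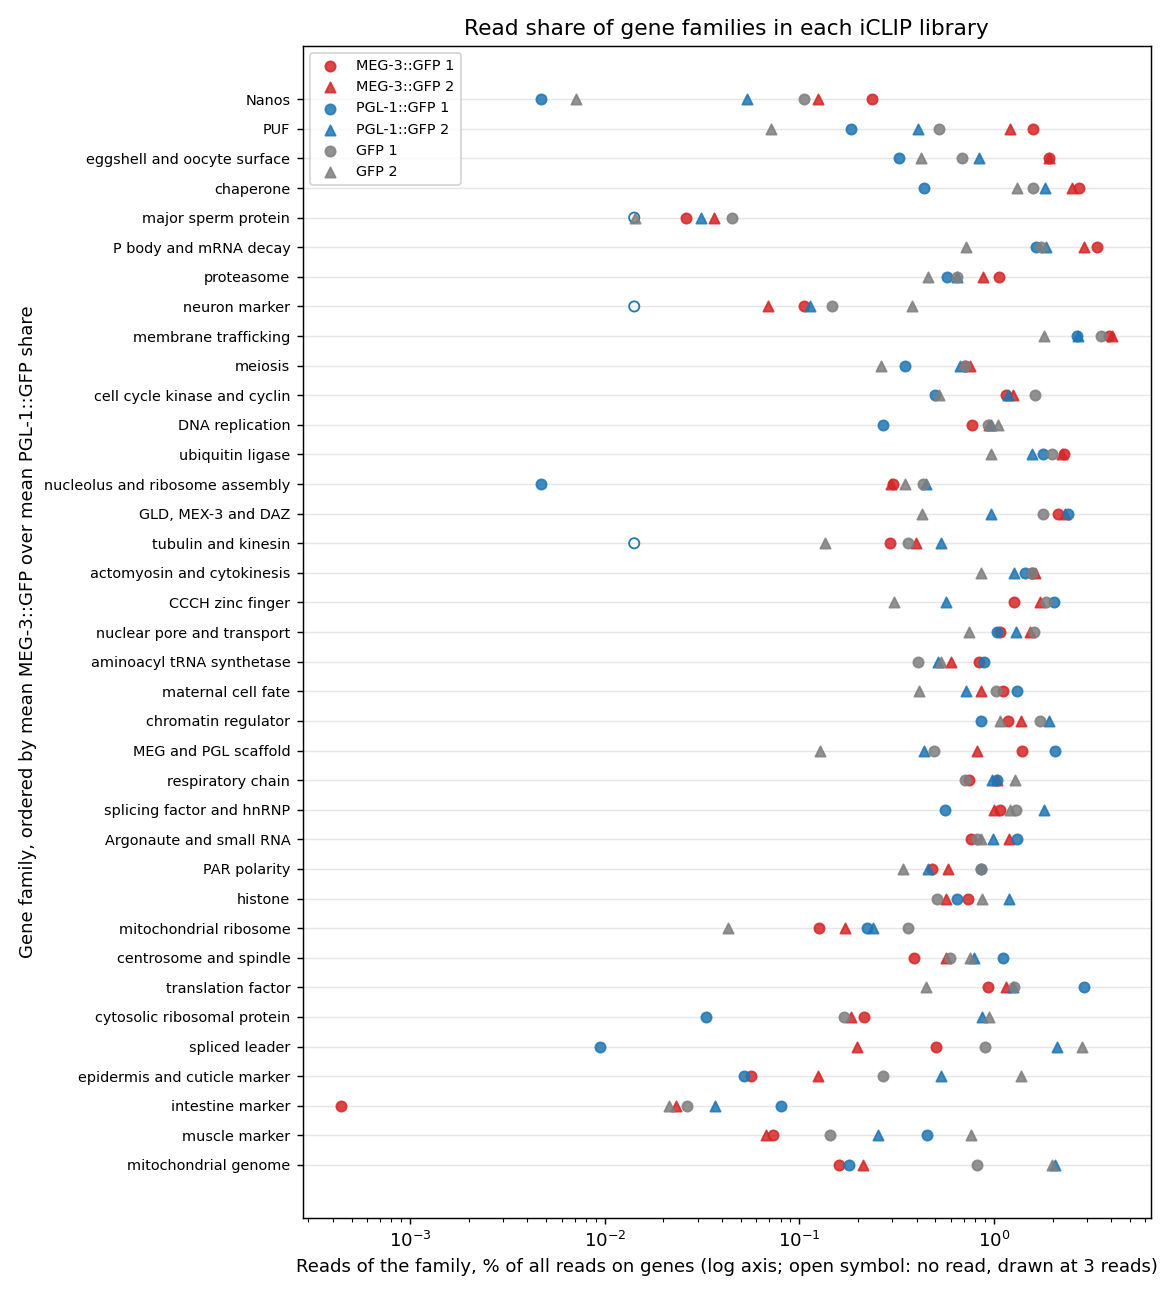
Reads of each of 37 gene families as a percentage of all reads on genes (log x axis) in the 6 libraries, ordered by the ratio of the mean MEG-3 to the mean PGL-1 share, with circles for the first and triangles for the second library. The red MEG-3 symbols lie together for most families (median fold 1.29), while the blue PGL-1 symbols lie apart (median fold 2.20).

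The PUF family consists of RNA-binding proteins that repress maternal mRNAs through their 3′ ends. With all 4 libraries and all members, it had the largest ratio of MEG-3 iCLIP to PGL-1 iCLIP among families with more than 3 genes read. Without PGL-1 replicate 2 its log2 ratio was 2.92, below nucleolus and ribosome assembly (5.99) and spliced leader genes (5.22). Without the most read member of each family it was 1.68, below the list of major sperm protein and other sperm genes (2.73). That list had only 190 reads over the 4 libraries with its most read member, *spe-39*, included, and 0 in the first PGL-1 library. PUF mRNAs took 1.58% (95% interval 1.53 to 1.63) and 1.21% (95% interval 1.18 to 1.26) of MEG-3 reads, 0.184% (95% interval 0.135 to 0.252) and 0.407% (95% interval 0.368 to 0.45) of PGL-1 reads, and 0.52% and 0.0712% of GFP reads. Both MEG-3 libraries lay above all 4 others, the lower of them 2.98 times the higher PGL-1 library, and the ratio of means was 4.72. Most of the family's reads came from *puf-5* (chromosome II, 8575541 to 8577787 in the WBcel235 assembly), which acts in oocyte growth. *puf-5* had 2865 and 2123 reads in MEG-3 iCLIP and 35 and 174 in PGL-1 iCLIP, or 12699 and 7582 against 1652 and 1879 CPM, with 2412 and 214 in GFP. Its libraries did not overlap, and its log2 fold change was 2.84 (edgeR, unadjusted p = 0.0758, adjusted p = 1). *puf-6* had 153 and 262 MEG-3 reads and 0 and 8 PGL-1 reads, and *puf-7* had 201 and 238 and 0 and 38. *puf-3* had 1334 and 1414 CPM in MEG-3 iCLIP and 142 and 788 in PGL-1 iCLIP. Both values for MEG-3 iCLIP were above both for PGL-1 iCLIP for each of these genes, and 4 of the 7 tested PUF genes were separated in this direction and 0 in the other, against 26.4% and 5.07% of all tested genes. *puf-11* and *puf-8* overlapped. *puf-9* was higher in PGL-1 iCLIP only through the floor, with 0 and 37 reads against 0 and 19 in MEG-3 iCLIP. *puf-3* with *puf-11*, and *puf-6* with *puf-7* and *puf-10*, are near-identical copies whose split of reads is uncertain.

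The Nanos mRNAs, which encode partners of PUF proteins in the germ line, showed the same order at lower depth. They took 0.236% (95% interval 0.217 to 0.257) and 0.124% (95% interval 0.112 to 0.138) of MEG-3 reads and 0.00472% (95% interval 0.000833 to 0.0267) and 0.054% (95% interval 0.041 to 0.0712) of PGL-1 reads, with 0.106% and 0.00712% in GFP. *nos-2* (chromosome II, 7065618 to 7067051), needed for primordial germ cell development, had 292 and 289 reads in MEG-3 iCLIP, 1 and 21 in PGL-1 iCLIP and 25 and 0 in GFP. These were 1294 and 1032 against 47.2 and 227 CPM, with no overlap, but the first GFP library stood at 942 and close to the MEG-3 values. *nos-3* overlapped, with 656 and 114 in MEG-3 iCLIP and 0 and 248 in PGL-1 iCLIP, and *nos-1* had 92 and 26 reads in MEG-3 iCLIP and 0 and 6 in PGL-1 iCLIP. Without *nos-2*, its most read member, the family overlapped.

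mRNAs for the eggshell and the oocyte surface had the largest share of separated members among the 10 families higher in MEG-3 iCLIP. Their share was 1.92% (95% interval 1.86 to 1.98) and 1.92% (95% interval 1.87 to 1.97) in MEG-3 iCLIP, 0.326% (95% interval 0.258 to 0.412) and 0.842% (95% interval 0.786 to 0.903) in PGL-1 iCLIP and 0.682% and 0.42% in GFP, a ratio of means of 3.29. The MEG-3 libraries differed by less than their intervals and both lay above the other 4. 10 of the 14 tested members were higher in both MEG-3 libraries and 0 in both PGL-1 libraries, against 26.4% and 5.07% of all tested genes. *cbd-1* (chromosome IV, 11372991 to 11377627), which encodes a chitin-binding protein of the vitelline layer, had 1255 and 2041 reads in MEG-3 iCLIP, 2 and 195 in PGL-1 iCLIP and 12 and 0 in GFP. The first PGL-1 library was low and the second, at 2106 CPM, was still below the MEG-3 values of 5563 and 7289. *egg-6* had 3302 and 2593 CPM in MEG-3 iCLIP and 1652 and 886 in PGL-1 iCLIP, so that here the first PGL-1 library was the higher of its pair. The chondroitin proteoglycan genes *cpg-1* (221 and 361 against 3 and 34 reads) and *cpg-2* (336 and 296 against 2 and 54 reads) and the egg activation gene *egg-3* (272 and 231 against 1 and 41) followed the same order. *clec-87* overlapped, and the first GFP library held more of it, at 1621 CPM, than either MEG-3 library.

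**Figure D3:**
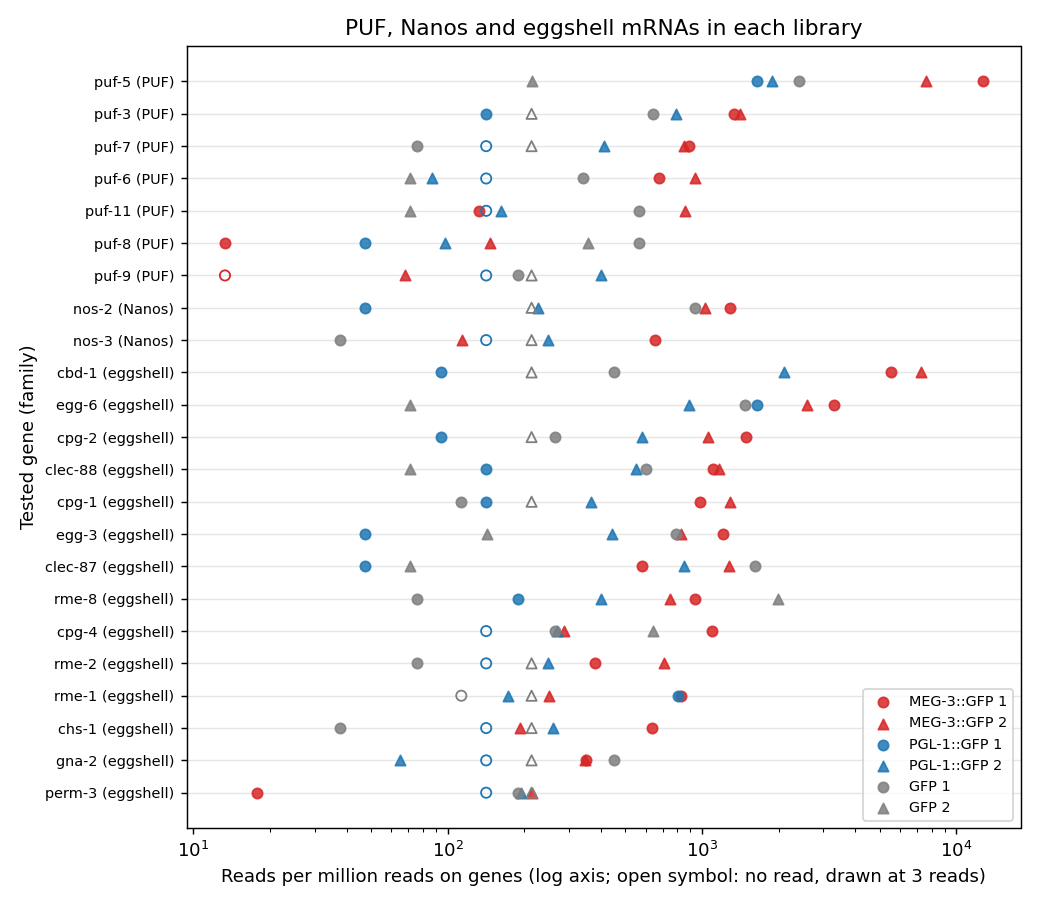
CPM (log x axis) of the tested members of the PUF, Nanos and eggshell families in the 6 libraries, with circles for the first and triangles for the second library and open symbols for no read, drawn at 3 reads. For *puf-5* the MEG-3 libraries lie at 12699 and 7582 and the PGL-1 libraries at 1652 and 1879, while *puf-8* and *puf-9* show no such gap.

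The other families of germline RNA regulators overlapped in their summed share. mRNAs of the GLD, MEX-3 and DAZ list took 2.14% and 2.3% of MEG-3 reads and 2.39% and 0.964% of PGL-1 reads, so the first PGL-1 library was as high as MEG-3 iCLIP and the second was lower. The list also held other regulators, such as *nhl-2* and *grif-1* (*Y51F10.2*), which the paper places in the TRIM-NHL family. *grif-1* made up 33.9% and 24.5% of the list's MEG-3 reads and 25.2% and 19.3% of its PGL-1 reads. 9 of the 18 tested members were higher in both MEG-3 libraries and 0 in both PGL-1 libraries, against 26.4% and 5.07% of all tested genes. Among them were *gld-1*, a KH domain repressor of maternal mRNAs, with 237 and 644 reads in MEG-3 iCLIP and 1 and 48 in PGL-1 iCLIP, the poly(A) polymerase gene *gld-2* (149 and 225 and 9 and 17) and its partner *gld-3* (164 and 361 and 0 and 38). *larp-1* had 2753 and 2418 CPM in MEG-3 iCLIP and 189 and 1091 in PGL-1 iCLIP. *grif-1* (chromosome I, 1978030 to 1983412), the most read member, was not separated, with 7269 and 5643 CPM in MEG-3 iCLIP and 6043 and 1858 in PGL-1 iCLIP, all well above the 678 and 0 of GFP. *daz-1* was highest in the first PGL-1 library, at 7649 CPM, against 124 and 1200.0 in MEG-3 iCLIP and 648 in the second PGL-1 library.

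CCCH zinc finger and partner mRNAs, which encode regulators of the oocyte-to-embryo transition, took 1.27% and 1.72% in MEG-3 iCLIP, 2.03% and 0.565% in PGL-1 iCLIP and 1.84% and 0.306% in GFP. The PGL-1 libraries lay on both sides of MEG-3 iCLIP. *oma-2* alone made up 50.9% of the family in the first PGL-1 library, with 10339.9 and 443 CPM in PGL-1 iCLIP and 2539.8 and 1954 in MEG-3 iCLIP. *oma-2* overlapped, while its paralog *oma-1* was higher in both MEG-3 libraries, at 1831 and 2386 in MEG-3 iCLIP and 708 and 583 in PGL-1 iCLIP. *mex-1* (chromosome II, 11968637 to 11972347), needed for germ plasm segregation, had 368 and 313 reads in MEG-3 iCLIP and 1 and 22 in PGL-1 iCLIP, and *mex-6* had 234 and 913 and 1 and 50. Both genes were higher in both MEG-3 libraries, while *pos-1* (2269 and 2411 in MEG-3 iCLIP and 2455 and 994 in PGL-1 iCLIP, in CPM), *spn-4* and *mex-5* overlapped. For *pos-1* and *mex-5* the first GFP library, at 4636 and 4259 CPM, was above all 4 libraries of the tagged proteins.

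P body and mRNA decay factors, which remodel, silence or deadenylate mRNAs, were higher in MEG-3 iCLIP. Their mRNAs took 3.4% (95% interval 3.33 to 3.48) and 2.92% (95% interval 2.85 to 2.98) of MEG-3 reads, 1.64% (95% interval 1.48 to 1.82) and 1.84% (95% interval 1.76 to 1.93) of PGL-1 reads and 1.75% and 0.719% of GFP reads, and the replicates of each protein lay close together. The lower MEG-3 library was 1.58 times the higher PGL-1 library. *cgh-1* (chromosome III, 7495320 to 7497832), the DDX6-type RNA helicase gene, was among the 5 most read genes of 3 of the 4 libraries. It had 2422 and 2568 reads in MEG-3 iCLIP and 85 and 293 in PGL-1 iCLIP, which were 10735 and 9171 against 4013 and 3164 CPM, with 2525 and 499 in GFP. *gtbp-1*, the G3BP stress granule gene, had 556 and 436 reads in MEG-3 iCLIP and 0 and 27 in PGL-1 iCLIP (log2 fold change 3.75, edgeR unadjusted p = 0.11). *let-711*, the scaffold of the CCR4-NOT deadenylase, had 3364 and 2314 CPM in MEG-3 iCLIP and 755 and 1696 in PGL-1 iCLIP, and *tiar-1* had 1822 and 2775 and 283 and 724. 9 of the 22 tested members were separated toward MEG-3 iCLIP and 0 toward PGL-1 iCLIP, against 26.4% and 5.07% of all tested genes. The decapping activator gene *patr-1* overlapped, since the first PGL-1 library stood at 5099 CPM against 1503 and 1225 in MEG-3 iCLIP. *car-1* also overlapped, with 5204 and 3068 in MEG-3 iCLIP and 3399 and 1015 in PGL-1 iCLIP.

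mRNAs of P granule scaffold proteins themselves did not separate as a family, at 1.4% and 0.82% in MEG-3 iCLIP and 2.05% and 0.437% in PGL-1 iCLIP. *meg-3* (chromosome X, 1986469 to 1989607), the tagged gene of one strain, had 1986 and 635 reads in MEG-3 iCLIP, 119 and 27 in PGL-1 iCLIP and 8 and 0 in GFP, and its values overlapped at 8803 and 2268 and 5619 and 292 CPM. *pgl-1* (chromosome IV, 6974442 to 6977318), the tagged gene of the other, had 44 and 33 reads in MEG-3 iCLIP, 53 and 24 in PGL-1 iCLIP and 0 in both GFP libraries. It was higher in both PGL-1 libraries, at 2502 and 259 against 195 and 118 CPM, with the second PGL-1 library only 1.33 times the higher MEG-3 library. *laf-1*, a DDX3-type RNA helicase gene, was also separated toward PGL-1 iCLIP, with 134 and 42 reads against 21 and 120 in MEG-3 iCLIP, but at 6327 and 454 and 93.1 and 429 CPM the second PGL-1 library was close to the second MEG-3 library. The genes *mip-1* (479 and 311 against 0 and 194 CPM) and *mip-2* (479 and 421 against 236 and 378), which encode P granule proteins with LOTUS domains, were higher in both MEG-3 libraries, so 2 of the 10 tested members were separated in each direction. *deps-1*, which encodes a P granule protein, overlapped and had 2447 and 2104 CPM in MEG-3 iCLIP, 5005 and 594 in PGL-1 iCLIP and 377 and 71.2 in GFP. Argonaute and small RNA pathway mRNAs overlapped too (0.761% and 1.2% and 1.31% and 0.993%). 7 of the 22 tested members (31.8%) were higher in both MEG-3 libraries and 0 in both PGL-1 libraries, against 26.4% and 5.07% of all tested genes. Among them was *csr-1*, with 74 and 130 against 1 and 10 reads, while *hrde-1* and *alg-5* were highest in the first PGL-1 library, at 5288 and 4910 CPM.

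Protein folding and turnover mRNAs were higher in both MEG-3 libraries. Chaperone mRNAs took 2.72% (95% interval 2.66 to 2.79) and 2.5% (95% interval 2.45 to 2.56) of MEG-3 reads, 0.434% (95% interval 0.354 to 0.532) and 1.83% (95% interval 1.74 to 1.91) of PGL-1 reads and 1.58% and 1.32% of GFP reads, and 13 of the 37 tested members (35.1%) were separated toward MEG-3 iCLIP and 1 toward PGL-1 iCLIP, against 26.4% and 5.07% of all tested genes. The first PGL-1 library was the lowest of the 4, and the second lay below the MEG-3 libraries by a smaller margin (1.37 times). *hsp-110* had 396 and 380 reads in MEG-3 iCLIP and 0 and 51 in PGL-1 iCLIP, and the Hsp70 gene *hsp-1* had 1706 and 1768 CPM against 803 and 886. Several subunits of the cytosolic chaperonin followed, such as *cct-8* (229 and 389 against 0 and 42 reads) and *cct-4* (244 and 145 against 0 and 11). *fkb-2*, a peptidyl-prolyl isomerase gene, was separated toward PGL-1 iCLIP, with 9 and 49 reads against 1 and 34. Proteasome mRNAs took 1.07% and 0.877% in MEG-3 iCLIP and 0.576% and 0.646% in PGL-1 iCLIP, and 5 of the 20 tested members were separated toward MEG-3 iCLIP and 1 toward PGL-1 iCLIP, close to the 26.4% and 5.07% of all tested genes. The AAA ATPase gene *cdc-48.1* led them with 3134 and 2471 CPM in MEG-3 iCLIP and 472 and 929 in PGL-1 iCLIP. Ubiquitin ligase mRNAs took 2.3% and 2.24% and 1.78% and 1.57%. *zif-1*, the substrate adaptor that removes germ plasm proteins from somatic cells, had 150 and 150 reads in MEG-3 iCLIP and 1 and 45 in PGL-1 iCLIP, and in CPM the first GFP library, at 1847, exceeded all of them. *uba-1*, the ubiquitin-activating enzyme gene and the most read member, overlapped, at 4428 and 4778 in MEG-3 iCLIP and 5902 and 1717 in PGL-1 iCLIP.

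Membrane trafficking mRNAs, the family with the most genes read (159), were higher in MEG-3 iCLIP. They took 3.91% (95% interval 3.83 to 3.99) and 4.04% (95% interval 3.97 to 4.11) of MEG-3 reads, 2.68% (95% interval 2.47 to 2.9) and 2.69% (95% interval 2.59 to 2.8) of PGL-1 reads and 3.53% and 1.82% of GFP reads. 23 of the 72 tested members (31.9%) were higher in both MEG-3 libraries and 1 (1.39%) in both PGL-1 libraries, against 26.4% and 5.07% of all tested genes. The V-ATPase gene *vha-13* had 779 and 874 reads in MEG-3 iCLIP and 1 and 121 in PGL-1 iCLIP, and the clathrin heavy chain gene *chc-1* had 515 and 792 and 8 and 86. *sec-61.A*, the translocon channel gene, overlapped at 4455 and 4628 and 4721 and 1912 CPM. *vha-11* was the member separated toward PGL-1 iCLIP, with 12 and 17 reads against 10 and 24.

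Cell division and cytoskeletal families gave small or mixed differences. Actomyosin and cytokinesis mRNAs were separated by a factor of 1.08 between the nearest libraries (1.56% and 1.62% in MEG-3 iCLIP, 1.44% and 1.27% in PGL-1 iCLIP), and the first GFP library, at 1.58%, lay between the MEG-3 values. The anillin gene *ani-2* had 347 and 483 reads in MEG-3 iCLIP and 3 and 55 in PGL-1 iCLIP, and 12 of the 34 tested members (35.3%) were separated in that direction and 1 in the other, against 26.4% and 5.07% of all tested genes. Meiosis mRNAs took 0.712% and 0.751% and 0.349% and 0.665%, a factor of 1.07 between the nearest libraries, and overlapped when reads on protein-coding genes were the total. They took 0.709% and 0.264% in GFP, so the first GFP library was about equal to the first MEG-3 library. Cell cycle kinase and cyclin mRNAs overlapped (1.16% and 1.25% and 0.5% and 1.17%), and 8 of the 22 tested members (36.4%) were higher in both MEG-3 libraries, against 26.4% of all tested genes, such as *mbk-2*, a kinase gene of the oocyte-to-embryo transition, with 2429 and 2118 against 330.5 and 1296 CPM. Maternal cell fate mRNAs overlapped as well (1.11% and 0.86% and 1.31% and 0.72%). 8 of the 20 tested members were separated toward MEG-3 iCLIP, against 26.4% of all tested genes, including the Notch receptor gene *glp-1* (82 and 129 against 0 and 31 reads) and the homeobox gene *pal-1* (423 and 183 against 13 and 14). Centrosome and spindle mRNAs were higher in PGL-1 iCLIP, at 1.11% (95% interval 0.981 to 1.26) and 0.787% (95% interval 0.732 to 0.846) against 0.387% (95% interval 0.363 to 0.414) and 0.567% (95% interval 0.54 to 0.596) in MEG-3 iCLIP and 0.596% and 0.755% in GFP. In the first PGL-1 library 51.3% of that sum was *rsa-2*, a gene for a centrosomal phosphatase adaptor, which had 5713 and 378 CPM in PGL-1 iCLIP and 66.5 and 107 in MEG-3 iCLIP. Without *rsa-2* the family overlapped. Of its 17 tested members, 1 (5.88%) was separated toward MEG-3 iCLIP and 2 (11.8%) toward PGL-1 iCLIP, against 26.4% and 5.07% of all tested genes.

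**Figure D4:**
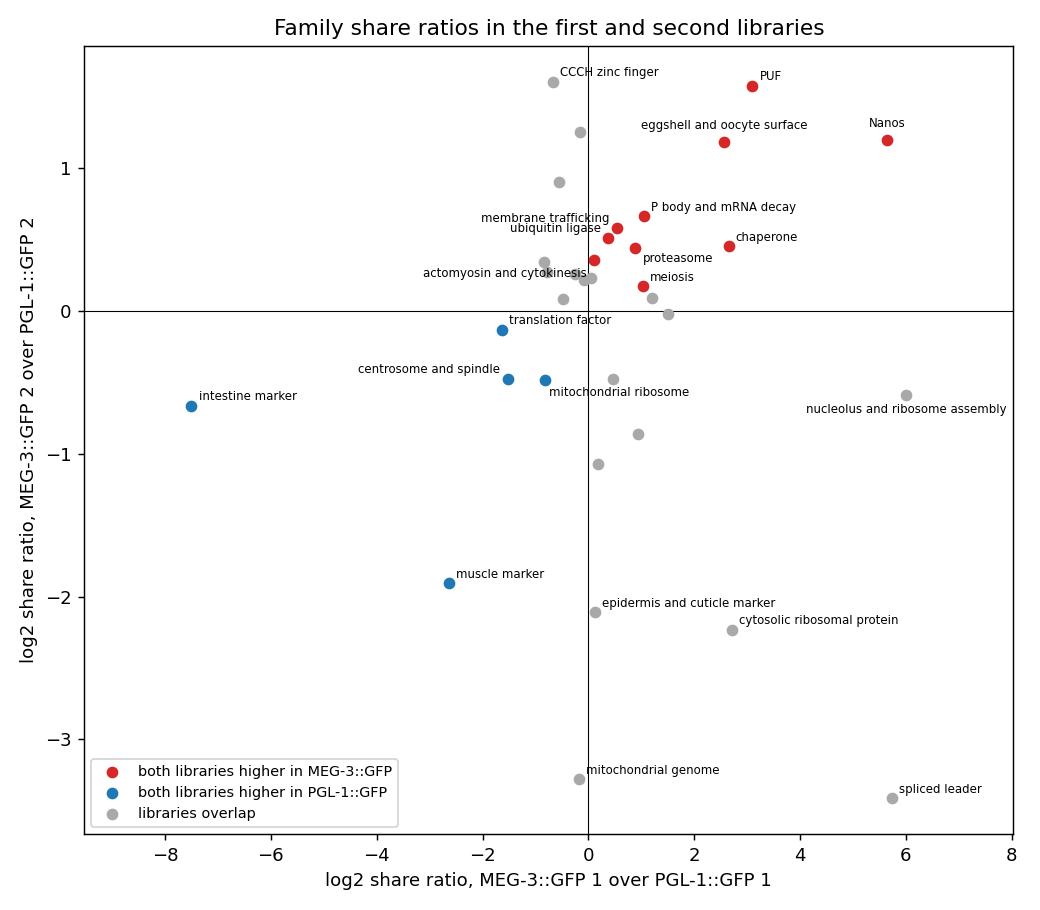
log2 ratio of the family share in MEG-3 iCLIP to that in PGL-1 iCLIP for the first libraries (x axis) and the second libraries (y axis), with red and blue for families in which the libraries of the proteins did not overlap, and leaving out 3 families with no read in the first PGL-1 library. PUF, Nanos and the eggshell lie highest of the red points on the y axis, and the x axis covers a wider range than the y axis.

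Families of the translation machinery gave small or mixed differences. Translation factor mRNAs were higher in PGL-1 iCLIP, at 2.88% (95% interval 2.67 to 3.12) and 1.26% (95% interval 1.19 to 1.33) against 0.929% (95% interval 0.89 to 0.969) and 1.15% (95% interval 1.11 to 1.19) in MEG-3 iCLIP, and 1.27% and 0.449% in GFP, so that the second PGL-1 library was only 1.09 times the higher MEG-3 library. In the first PGL-1 library 37% of the reads of this family were on *eif-2A* (chromosome II, 10416800 to 10419237), with 10670.4 and 432 CPM in PGL-1 iCLIP and 652 and 1011 in MEG-3 iCLIP, which overlapped. *erfa-1* (chromosome V, 6434130 to 6436402), the release factor gene, was separated, with 102 and 30 reads in PGL-1 iCLIP, 2 and 10 in MEG-3 iCLIP and 13 and 0 in GFP (log2 fold change -6.03, edgeR unadjusted p = 0.0288, adjusted p = 1). *erfa-3*, its partner in termination, was separated the other way only narrowly, at 1308 and 543 CPM in MEG-3 iCLIP and 0 and 540.0 in PGL-1 iCLIP. *ifg-1* (222 and 469 against 1 and 73 reads), the eIF4G gene, and *inf-1* (244 and 429 against 4 and 66), the eIF4A gene, were also higher in both MEG-3 libraries. Of the 19 tested translation factor genes, 4 (21.1%) were separated toward MEG-3 iCLIP and 2 (10.5%) toward PGL-1 iCLIP, against 26.4% and 5.07% of all tested genes. Cytosolic ribosomal protein mRNAs overlapped, with the PGL-1 libraries on both sides of MEG-3 iCLIP, at 0.216% (95% interval 0.198 to 0.236) and 0.185% (95% interval 0.169 to 0.201) in MEG-3 iCLIP, 0.0331% (95% interval 0.016 to 0.0682) and 0.866% (95% interval 0.808 to 0.928) in PGL-1 iCLIP and 0.17% and 0.94% in GFP. Aminoacyl tRNA synthetase mRNAs overlapped (0.841% and 0.604% and 0.888% and 0.518%). The mitochondrial ribosome mRNAs took 0.126% and 0.172% in MEG-3 iCLIP, 0.222% and 0.24% in PGL-1 iCLIP and 0.362% and 0.0427% in GFP. They were higher in PGL-1 iCLIP by a factor of 1.29 between the nearest libraries, but the first GFP library was higher still. In the first PGL-1 library 74.5% of these reads were on *mrpl-46*, and without it the log2 ratio went from -0.63 to 0.01. With TMM-scaled totals the mitochondrial ribosome overlapped too. Of its 2 tested members, 1 was separated toward MEG-3 iCLIP and 0 toward PGL-1 iCLIP.

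Nuclear and chromatin families overlapped. Chromatin regulator mRNAs took 1.18% and 1.38% in MEG-3 iCLIP and 0.855% and 1.91% in PGL-1 iCLIP, with 7 of the 45 tested members (15.6%) separated toward MEG-3 iCLIP and 4 (8.89%) toward PGL-1 iCLIP, against 26.4% and 5.07% of all tested genes. *hmg-1.1* (chromosome II, 14250695 to 14251450), a high mobility group gene, was about equal in the PGL-1 libraries and higher there, with 57 and 263 reads in PGL-1 iCLIP and 140 and 127 in MEG-3 iCLIP, or 2691 and 2840.4 against 621 and 454 CPM, and 1583 and 855 in GFP. Histone mRNAs took 0.734% and 0.566% and 0.647% and 1.19%, and 83.9% of those in the first PGL-1 library were on *his-72*, an H3.3 gene. Splicing factor mRNAs took 1.07% and 0.999% and 0.562% and 1.81%. Here 1 of the 28 tested members (3.57%) was separated toward MEG-3 iCLIP and 3 (10.7%) toward PGL-1 iCLIP, against 26.4% and 5.07% of all tested genes. The 3 included *prp-19* (45 and 31 reads against 26 and 24) and the SR protein gene *rsp-3* (16 and 81 against 8 and 145). Histone, tubulin and actin genes have near-identical copies, and their reads may be split among them.

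Reads outside nuclear protein-coding genes set the second PGL-1 library apart from the other 3. Protein-coding genes took 97.7% and 98.4% of MEG-3 reads and 98.5% and 88% of PGL-1 reads, with 94.7% and 83.5% in GFP. Small nuclear RNAs, the spliced leader donor genes included, took 0.628% and 0.218% in MEG-3 iCLIP and 0.0142% and 2.83% in PGL-1 iCLIP, small nucleolar RNAs 0.395% and 0.119% and 0.0567% and 1.86%, and tRNAs 0.00443% and 0.00679% and 0.0189% and 1.79%. In each of these classes the second PGL-1 library was the highest of the 4. The GFP libraries held 1.02% and 4.47% small nuclear, 1.63% and 5.69% small nucleolar and 0.109% and 0.598% transfer RNA reads, so the second PGL-1 library lay between them for small nuclear and small nucleolar RNAs and above both for tRNA. Of these 3 classes only tRNA was higher in both PGL-1 libraries, on 4 reads in the first. Pseudogenes were also higher in both, at 1.19% and 0.703% in PGL-1 iCLIP and 0.241% and 0.234% in MEG-3 iCLIP. They took 0.343% and 0.634% in GFP, and the first PGL-1 library, with 253 reads, was the highest. With reads on protein-coding genes as the total, 9 of the 10 families higher in MEG-3 iCLIP and all 5 higher in PGL-1 iCLIP stayed separated. The spliced leader gene *sls-1.12*, with near-identical copies, had 4999.8 and 1968 CPM in MEG-3 iCLIP, 94.4 and 20142 in PGL-1 iCLIP and 8895 and 25142 in GFP. Transcripts of the mitochondrial genome took 0.159% (95% interval 0.144 to 0.176) and 0.212% (95% interval 0.196 to 0.23) in MEG-3 iCLIP and 0.179% (95% interval 0.131 to 0.246) and 2.06% (95% interval 1.97 to 2.15) in PGL-1 iCLIP, with 0.822% and 1.98% in GFP. The first PGL-1 library lay within the MEG-3 range and the second close to the second GFP library. In the mitochondrial genome *ctc-1*, a cytochrome oxidase subunit gene, was higher in both PGL-1 libraries, with 11 and 179 reads against 4 and 78.

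**Figure D5:**
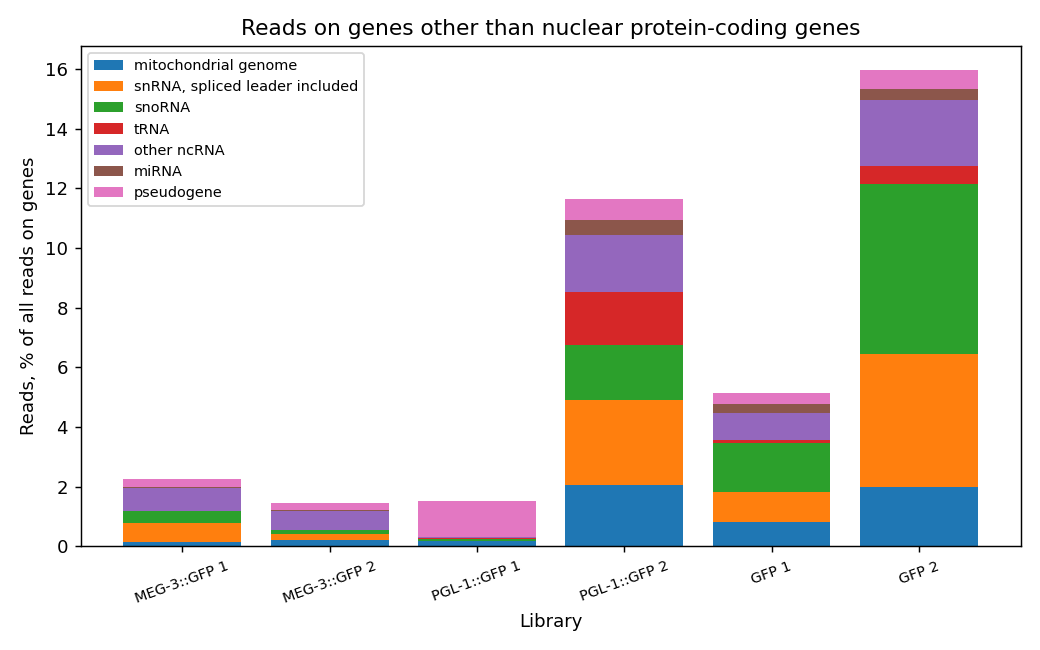
Reads on genes other than nuclear protein-coding genes as a percentage of all reads on genes, stacked by gene type, in each of the 6 libraries. The second PGL-1 library held 2.06% mitochondrial and 2.83% small nuclear RNA reads, against 0.179% and 0.0142% in the first. The GFP libraries held 0.822% and 1.98% mitochondrial and 1.02% and 4.47% small nuclear RNA reads.

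Each list of genes of differentiated tissues took at most 0.535% of the reads of any of the 4 libraries. Muscle marker mRNAs took 0.0731% (95% interval 0.0628 to 0.0852) and 0.0675% (95% interval 0.0585 to 0.0778) of MEG-3 reads and 0.453% (95% interval 0.371 to 0.553) and 0.253% (95% interval 0.222 to 0.287) of PGL-1 reads, with 0.143% and 0.762% in GFP, and 27 of these genes were read. The PGL-1 libraries were higher through different genes, since *pat-4*, the integrin-linked kinase gene, made up 97.9% of these reads in the first PGL-1 library and 8.55% in the second. Without *pat-4* the family overlapped, and 0 of its 6 tested members were separated in either direction. Intestine markers, with 8 genes read, took 0.000443% and 0.0232% and 0.0803% and 0.0367%, and the desaturase gene *fat-1* held all of them in the first PGL-1 library (17 reads). Epidermis and cuticle markers took 0.0563% and 0.124% and 0.0519% and 0.535% and overlapped, as did neuron markers (0.105% and 0.0689% and 0% and 0.113%). The GFP libraries held 0.268% and 1.37% epidermis and cuticle marker reads. These are shares of immunoprecipitated reads from whole embryos. More cells of a tissue, more RNA per cell, more crosslinking and background cannot be told apart. X-linked genes, many of which are silent in the germ line, took 5.74% and 5.43% of MEG-3 reads and 6.36% and 8.44% of PGL-1 reads, with 5.84% and 13.01% in GFP.

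The 10 genes furthest apart toward MEG-3 iCLIP, by the ratio of the nearest libraries, were *gldi-5* (228 and 263 reads against 0 and 9), *cutc-1* (219 and 244 against 0 and 9), *lea-1* (193 and 232 against 0 and 14), *T22F3.2* (234 and 214 against 3 and 11), *gtbp-1*, the nucleoside diphosphate kinase gene *ndk-1* (434 and 247 against 2 and 16), the perilipin gene *plin-1* (168 and 197 against 0 and 7), *puf-6*, *F35C11.5* (447 and 400 against 0 and 28) and *mex-1*. Counts under 3 were raised to 3 in these ratios. The lower MEG-3 library was 6.63 times the floor of the first PGL-1 library (142 CPM) for *gldi-5*. For *mex-1* it was 4.70 times the higher PGL-1 value. Toward PGL-1 iCLIP, by the rule with 3 reads in both libraries and so chosen after the values were seen, they were *pod-2*, the acetyl-CoA carboxylase gene (27 and 41 reads against 2 and 5 in MEG-3 iCLIP), *eas-1*, the condensin gene *mix-1* (10 and 27 against 3 and 8), *erfa-1*, *F33D11.10*, *pacs-1*, *seu-1*, the chromatin remodeler gene *ssl-1* (13 and 37 against 1 and 19), *pqn-83* and *scpl-4*. The lower PGL-1 library was 24.8 times the higher MEG-3 value for *pod-2* and 5.54 times for *scpl-4*. These PGL-1 values rest on few reads, 6 to 139 a library in the first PGL-1 library and 7 to 41 in the second. The 5 most read genes of the first PGL-1 library were *mdt-26*, *eif-2A*, *oma-2*, *C23H3.5* and *daz-1*, none of which was separated. *mdt-26* had 11379 and 238 CPM in PGL-1 iCLIP and 350.2 and 225 in MEG-3 iCLIP, and *C23H3.5* had 191 and 1 reads in PGL-1 iCLIP and 3 and 7 in MEG-3 iCLIP. In both genes the second PGL-1 library was near or below the MEG-3 libraries.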

How the data were processed

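The authors aligned trimmed reads to the *C. elegans* genome ws235 with HISAT2 (2.1.0 per the submitters' processing notes), removed PCR duplicates and counted reads per gene with HTSeq. How reads that align to several places were treated is not given in the sources used here. The deposited table holds these counts, not normalized, for 6 libraries. It has 47085 rows and 46646 genes, since 438 identifiers are repeated with identical values, which were used once. Names, gene types and coordinates came from RefSeq (WBcel235) by sequence name, which matched 9212 of 9268 genes with a read (99.4%). Library totals ran from 14040 to 280007, and intervals are 95% Wilson intervals, which cover counting error only.

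All 6 libraries entered edgeR 4.0.16 (R 4.3.3), with its default filter on low counts, TMM scaling and the quasi-likelihood test, and 2033 genes were tested. DESeq2 1.42.0 was an alternative. The fit was tested on simulated data. Families of at least 3 genes and 100 reads were compared as shares of all reads on genes. The alternatives were other scalings, no floor, a mean of at least 100 CPM (counts scaled to a total of 1000000), reads on protein-coding genes, genes capped at 0.5% of a library, families without their most read member, and leaving out each library. Named genes were the tagged genes, the 5 most read genes of each library, up to 3 most read members of each family and the 10 most separated in each direction. Others were named after their values were seen. The gene families and lists were chosen with earlier results of these data known. Then 2 lists were corrected after values were seen: *dpy* genes with no cuticle role left the epidermis list, and *tbc* genes left the tubulin list. Gene length (start to end, introns included) stood in for protein length, which was not used here.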

Additional observations from a re-analysis of the deposited data

How the results depend on the processing

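No alternative gave a gene past an adjusted p of 0.05 in edgeR or DESeq2, with lowest adjusted p values from 0.224 (without PGL-1::GFP replicate 2) to 1, and DESeq2 counted 176 genes lower and 0 higher in MEG-3::GFP at an unadjusted p under 0.05. With the replicate number as a block the count was also 0, with 4 genes lower and 0 higher at an unadjusted p under 0.05. Same-numbered libraries of MEG-3::GFP and PGL-1::GFP did not deviate together (correlation 0.011, with -0.093 for MEG-3::GFP and GFP and 0.102 for PGL-1::GFP and GFP). With 62.0% of tested genes unread in the first PGL-1::GFP library, these values cannot show whether the numbers pair the libraries. Leaving out 1 library gave 732 to 874 genes separated toward MEG-3::GFP (537 with all) and 558 to 799 toward PGL-1::GFP (321 with all), because fewer libraries had to lie apart. The 321 became 107 with no floor and 103 when 3 reads were asked of both higher libraries, and genes higher in MEG-3::GFP made up 84.8% of the separated genes with no floor against 62.6%. Leaving out 1 library gave 10 to 22 families higher in MEG-3::GFP and 6 to 16 higher in PGL-1::GFP. The original 10 and 5 stay separated by construction when a library is left out.

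Without the most read member of each family, 9 of the 10 families higher in MEG-3::GFP stayed (Nanos overlapped), while 1 family was higher in PGL-1::GFP, translation factors, and the mitochondrial ribosome ratio reversed to a log2 value of 0.0147. TMM-scaled totals gave 14 and 4 families, with all 10 kept. Before the lists were corrected, the epidermis and cuticle list was also higher in PGL-1::GFP, which made 6. The 21180 reads of the first PGL-1::GFP library limit what can be said of genes below 142 CPM.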
